A study of Mus musculus with 6 samples.

Results

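The transcription factors that set or maintain intestinal identity comprise 9 genes here, Cdx1, Cdx2, Hnf4a, Hnf4g, Gata4, Gata6, Klf5, Elf3 and Isx. They were taken by gene symbol from the deposited expression table, in which all 9 of the 9 symbols matched 1 gene each, out of 36977 genes listed. Bulk RNA-seq was made from colonic tissue of mice labelled WT, in 6 libraries of 2 groups numbered 1, 2 and 4. The DSS+DCA group, labelled DSS and DCA, had both dextran sodium sulfate (DSS), which damages colonic lining cells and so brings on colitis, and deoxycholic acid (DCA), which gut bacteria make from a primary bile acid. The DSS group carries the label DSS alone. One protocol text covers all 6 samples and describes 7 days of 2% DSS with a DCA enema afterwards. What the DSS group had in place of that enema, like strain, sex and age of the mice, was not given in the sources used here. Nothing in the labels says that each library came from its own mouse, so p-values measure the spread between these libraries, which may be partly technical.

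CDX1 and CDX2 are caudal-type homeobox factors that bind many enhancers of the gut epithelium, and in mice loss of CDX2 gives the epithelium foregut and gastric features. HNF4A and HNF4G are nuclear receptors that in mouse small intestine share targets in absorptive cells, and HNF4A is also needed for normal colonic epithelium. GATA4 is known for marking the proximal small intestine, where it holds back ileal genes, while GATA6 is present along the whole gut. KLF5 is a zinc finger factor of dividing crypt cells, ELF3 an ETS factor of differentiating epithelium, and ISX an intestine-specific homeobox factor that represses Bco1 and Scarb1, genes of carotenoid uptake and conversion.

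Promoter windows of 300 bases were in the RefSeq table (build GRCm38.p6) for 4 of the 9 factors. They are shown because these 4 split by the FPKM as deposited: Hnf4a and Elf3 measured lower in every DSS+DCA library, and Cdx2 and Isx did not separate the groups. This split depends on the scaling, as given further on, and its relation to the windows was not tested. Each window runs 5′ to 3′ on the strand of the gene, from 250 bases before the start to 50 after it. Hnf4a has 2 windows, 40298 bases apart, and the deposited table gives 1 value for the gene over both. Capitals mark each match, on either strand, to letters bound by factors of these families: TTTATG and TTTATT for CDX, AGATAA for GATA, CAAAGTCCA for HNF4, GGGCGG and GGGTGG for KLF, and GGAAGT for ETS.
Hnf4a, upstream window, chr2:163506607-163506906, + strand: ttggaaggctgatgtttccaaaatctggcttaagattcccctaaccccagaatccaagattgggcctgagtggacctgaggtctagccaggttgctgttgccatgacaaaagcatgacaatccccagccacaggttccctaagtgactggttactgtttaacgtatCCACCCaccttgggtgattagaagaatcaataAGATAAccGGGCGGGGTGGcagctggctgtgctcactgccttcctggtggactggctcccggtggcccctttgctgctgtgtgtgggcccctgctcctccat
Hnf4a, downstream window, chr2:163546905-163547204, + strand: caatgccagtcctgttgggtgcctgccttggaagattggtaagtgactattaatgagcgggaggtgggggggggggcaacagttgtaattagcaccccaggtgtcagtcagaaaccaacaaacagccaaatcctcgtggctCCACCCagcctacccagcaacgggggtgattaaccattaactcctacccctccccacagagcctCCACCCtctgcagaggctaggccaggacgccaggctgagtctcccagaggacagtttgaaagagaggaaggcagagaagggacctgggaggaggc
Elf3, chr1:135258423-135258722, - strand: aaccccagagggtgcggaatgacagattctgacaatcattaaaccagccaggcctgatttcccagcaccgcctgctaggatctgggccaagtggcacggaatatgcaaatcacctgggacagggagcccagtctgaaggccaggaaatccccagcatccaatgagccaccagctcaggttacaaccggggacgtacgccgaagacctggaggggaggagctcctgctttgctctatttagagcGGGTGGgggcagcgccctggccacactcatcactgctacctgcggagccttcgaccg
Cdx2, chr5:147307200-147307499, - strand: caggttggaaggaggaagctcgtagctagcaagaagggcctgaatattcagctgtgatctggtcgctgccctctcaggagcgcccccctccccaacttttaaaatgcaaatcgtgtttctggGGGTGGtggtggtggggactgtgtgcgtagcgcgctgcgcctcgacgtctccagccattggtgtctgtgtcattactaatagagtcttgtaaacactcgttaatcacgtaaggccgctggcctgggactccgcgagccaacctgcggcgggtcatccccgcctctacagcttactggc
Isx, chr8:74872924-74873223, + strand: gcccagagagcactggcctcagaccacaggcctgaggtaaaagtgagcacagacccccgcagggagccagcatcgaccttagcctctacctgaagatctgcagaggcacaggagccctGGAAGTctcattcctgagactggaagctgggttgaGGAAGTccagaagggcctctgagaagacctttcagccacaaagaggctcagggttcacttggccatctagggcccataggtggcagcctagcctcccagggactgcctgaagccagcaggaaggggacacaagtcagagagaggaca

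The upstream Hnf4a window held the GATA letters 52 bases before the start, on the gene's strand. It was the only one of the 5 windows with them, and 11.2% of all 32851 promoter windows (chromosome 18 left out) held them. Next to them, at 44 and 39 bases before the start, it held the KLF letters GGGCGG and GGGTGG, which overlap each other, and a further GGGTGG on the other strand. The GGGTGG letters also stood in the downstream Hnf4a window (2 matches on the other strand), in Elf3 and in Cdx2, and in 31.5% of all windows. The GGGCGG letters stood in 35.7% of all windows. The Isx window held the ETS letters at 132 and 97 bases before the start, and 23.8% of all windows held them. The CDX and HNF4 letters were in none of the 5 windows and in 11.9% (TTTATG), 19.6% (TTTATT) and 0.475% (CAAAGTCCA) of all windows. These matches describe letters in the windows and say nothing of binding.

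All values are FPKM, fragments scaled by transcript length and by library size, which can be compared between genes. Depth, estimated from the spacing of low values, was 15400000 to 18400000 fragments. DSS replicate 4 lay close to the mean of DSS replicates 1 and 2. In 777 abundant protein-coding genes (mean of 30 FPKM or more) its median absolute log2 distance from that mean was 0.0471, where replicates 1 and 2 themselves differed by 0.208. Its value lay between theirs for 7 of the 9 factors, all but Gata6 and Isx. Whether it is a library independent of these was not given in the sources used here. If it is not, DSS has 2 independent libraries, its SDs are too small and p-values over 3 DSS libraries do not hold. Values without it are given below. Mitochondrial transcripts held 47.6% and 46.7% of the summed FPKM in DSS+DCA replicates 2 and 4 and 30.5% in DSS+DCA replicate 1, against 29.4% to 31.4% in DSS. With sums outside the mitochondrial genome set equal, 0 factors were called by limma and their median log2 change was -0.56, beside -0.59 for the FPKM as deposited.

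The source is labelled as colonic tissue, and the cell type as intestinal epithelial cells. These labels do not name the part of the colon that was sampled. Of 15 general epithelial markers, all 15 were above 0 in at least 1 library, and they summed to 3443 to 6045 FPKM in DSS+DCA and 7214 to 8551 FPKM in DSS. Smooth muscle markers, 10 of 10 detected, summed to 95.7 to 1530 FPKM in DSS+DCA and 43.8 to 684.5 FPKM in DSS. Enteric neuron and glia markers summed to 4.78 to 73.0 FPKM in DSS+DCA and 2.61 to 14.7 FPKM in DSS, and immune markers to 25.5 to 60.1 FPKM in DSS+DCA and 19.2 to 20.5 FPKM in DSS. Fibroblast markers summed to 11.6 to 31.2 FPKM in DSS+DCA and 15.8 to 28.4 FPKM in DSS, and endothelial markers to 2.13 to 5.08 FPKM in DSS+DCA and 2.33 to 2.93 FPKM in DSS. In bulk tissue, fewer cells of a type and less RNA per cell cannot be told apart.

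The comparison set DCA on top of DSS against DSS alone. None of the 9 passed limma at a Benjamini-Hochberg adjusted p under 0.05 over the 14611 genes averaging 0.5 FPKM or more, where 82 genes, or 0.561%, passed (0.13% higher and 0.431% lower). At an adjusted p under 0.1, which 1.57% of genes passed, Gata4 was the 1 factor called. By unadjusted p under 0.05 in limma, 6 of the 9 were past it, beside 16.7% of all tested genes. A group of 6 factors (Cdx1, Hnf4a, Gata4, Gata6, Klf5 and Elf3) were lower in every DSS+DCA library than in every DSS library. This was the pattern of 17.8% of all tested genes, and 23.6% had no overlap in either direction. Of the 15 general epithelial markers, 8 were lower in this way and 0 higher. Among the 9 factors Hnf4g alone was higher in every DSS+DCA library, as were 5.8% of all tested genes, and Cdx2 and Isx overlapped. The median fitted log2 change of the 9 factors was -0.59, beside -0.09 over all tested genes. These directions are for the FPKM as deposited, and those of Hnf4a, Gata6, Klf5 and Elf3 turned when general epithelial markers were set equal, as given further on.

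**Figure D1:**
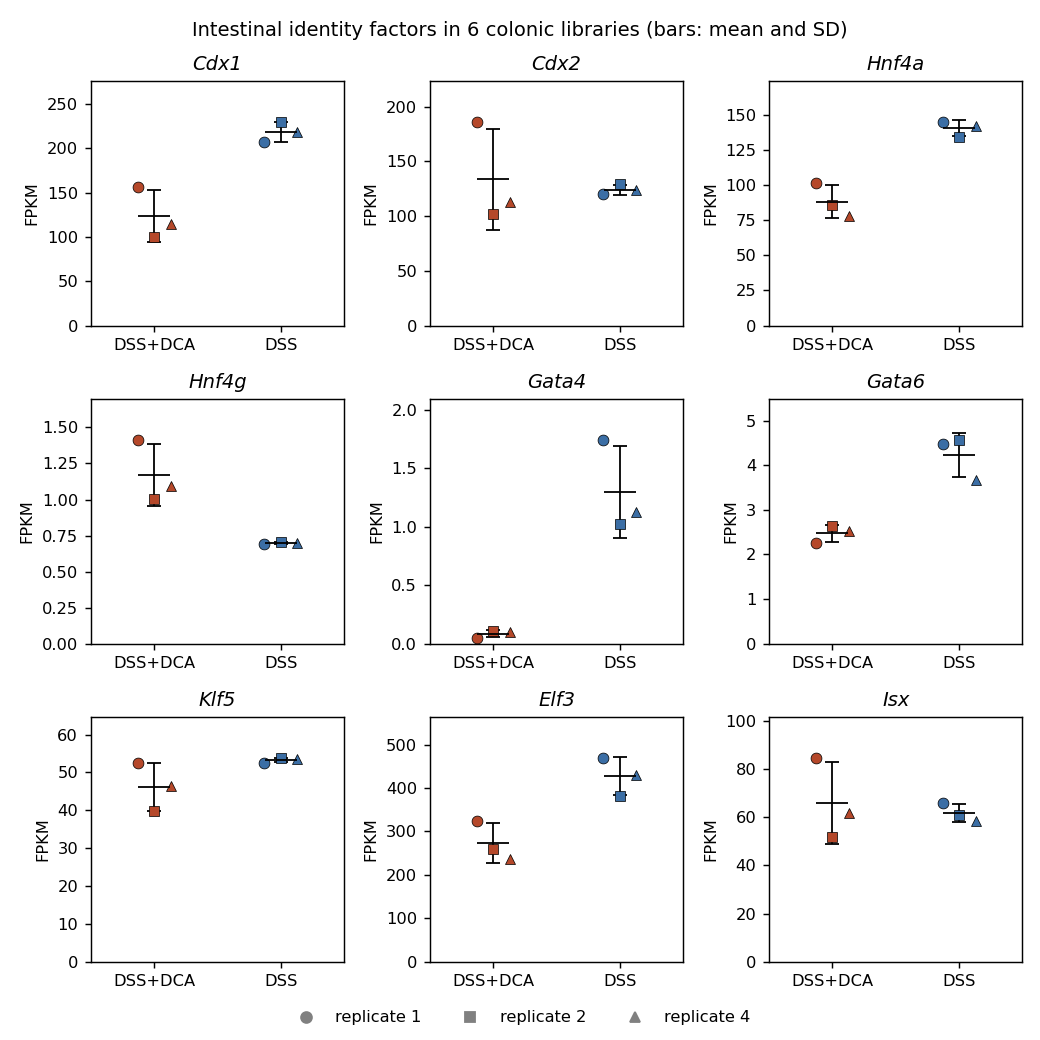
FPKM (vertical axes, linear from 0) of each of the 9 factors in DSS+DCA (left, red) and DSS (right, blue). Each symbol is 1 library and the bars give mean and SD over 3 libraries; Gata4 sits between 0.0491 and 0.107 FPKM in DSS+DCA and between 1.03 and 1.74 FPKM in DSS, while Cdx2 and Isx overlap.

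In DSS+DCA, Elf3 had the highest mean, 274 ± 45.6 FPKM, and in DSS too, at 427 ± 43.7 FPKM (SD, n = 3 each). In DSS+DCA, Cdx2, Cdx1, Hnf4a, Isx and Klf5 followed in that order, and the ranges of neighbours in the order overlapped from Cdx2 down to Klf5. In DSS the order below Elf3 was Cdx1, Hnf4a, Cdx2, Isx and Klf5, and no range overlapped that of the next gene. Gata6, Hnf4g and Gata4 came last in DSS+DCA, all under 3 FPKM, with ranges apart. In DSS the last 3 were Gata6, Gata4 and Hnf4g. Cdx2 thus stood above Cdx1 by mean in DSS+DCA and below it in DSS, and Hnf4g above Gata4 in DSS+DCA and below it in DSS.

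Among the homeobox factors, Cdx1 (chromosome 18, 61018862 to 61036199) measured 156.4, 99.4 and 115.1 FPKM in the DSS+DCA libraries 1, 2 and 4, against 207.6, 229.8 and 218.3 FPKM in the DSS libraries 1, 2 and 4. All 3 DSS+DCA libraries were below all DSS libraries. The means were 123.6 ± 29.5 FPKM in DSS+DCA and 218.6 ± 11.1 FPKM in DSS (SD, n = 3 each), which was 1.77-fold lower. The fitted log2 change was -0.84 ± 0.23 (SE, limma adjusted p = 0.162). Positions here and below are those of GENCODE M21 on GRCm38, matched by gene identifier, and the authors' build was not given in the sources used here.

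Cdx2 (chromosome 5, 147300805 to 147307270) measured 186.2, 101.9 and 112.5 FPKM in DSS+DCA, against 120.0, 129.2 and 123.7 FPKM in DSS. DSS+DCA replicate 1 was above every DSS library and the other two below every one. The means were 133.5 ± 45.9 FPKM in DSS+DCA and 124.3 ± 4.60 FPKM in DSS, and the log2 change was 0.05 ± 0.26 (SE, limma adjusted p = 0.937). Without DSS+DCA replicate 1 it was -0.21. Isx (chromosome 8, 74873173 to 74893506), whose gene depends on CDX2 in mouse gut, measured 84.7, 51.6 and 61.6 FPKM in DSS+DCA, against 66.0, 61.0 and 58.3 FPKM in DSS. Again DSS+DCA replicate 1 was the highest of all 6 libraries and DSS+DCA replicate 2 the lowest, with a log2 change of 0.07 ± 0.23 (SE, limma adjusted p = 0.910), or -0.13 without DSS+DCA replicate 1.

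The nuclear receptors went in opposite directions by value. Hnf4a (chromosome 2, 163506808 to 163572910) measured 101.2, 85.6 and 78.0 FPKM in DSS+DCA, against 145.0, 133.9 and 142.3 FPKM in DSS, with no overlap. Its means were 88.3 ± 11.8 FPKM in DSS+DCA and 140.4 ± 5.75 FPKM in DSS, or 1.59-fold lower, and the log2 change was -0.67 ± 0.19 (SE, limma adjusted p = 0.170). Hnf4g (chromosome 3, 3508030 to 3658052) measured 1.41, 1.00 and 1.09 FPKM in DSS+DCA, against 0.691, 0.706 and 0.697 FPKM in DSS. All 3 DSS+DCA libraries were above all DSS libraries, whose spread was 0.00749 FPKM (SD, n = 3). With the longest listed transcript and the estimated depth, the DSS values stand for about 26.4, 30.2 and 26.9 fragments. Those of DSS+DCA stand for about 51.0, 36.0 and 44.5 fragments. At so few fragments, an SD this small does not show a precise measurement. The mean of 1.17 ± 0.215 FPKM in DSS+DCA was 1.68-fold the 0.698 FPKM of DSS, with a log2 change of 0.35 ± 0.15 (SE, limma adjusted p = 0.296), or 0.66 with a pseudocount of 0.1 (limma adjusted p = 0.301). Even in DSS+DCA, Hnf4a was by far the more abundant of the pair.

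Gata4 (chromosome 14, 63198922 to 63271692) had the largest ratio between groups of the 9. It measured 0.0491, 0.107 and 0.0973 FPKM in DSS+DCA, against 1.74, 1.03 and 1.12 FPKM in DSS. The means were 0.0846 ± 0.0311 FPKM in DSS+DCA and 1.30 ± 0.389 FPKM in DSS, which was 15.3-fold lower. On the log2(FPKM + 1) scale, which understates changes of low genes, the log2 change was -1.07 ± 0.17 (SE, limma adjusted p = 0.0529). With a pseudocount of 0.1 it was -2.90 (limma adjusted p = 0.0527). With the longest listed transcript and the implied depth, these values stand for about 2.59, 5.62 and 5.79 fragments in DSS+DCA and 97.2, 64.2 and 63.3 fragments in DSS. From 14 fragments in DSS+DCA and 225 in DSS, the ratio of DSS over DSS+DCA per fragment sequenced was 15.1, with a 95% exact interval of 8.83 to 28.1 that covers counting error only and rests on this estimate.

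In the authors' deposited table, Gata4 was the 1 factor of the 9 called significant, with a fold of 0.0652 and a q-value of 3.73e-10. That table calls 1174 genes, or 3.17% of those listed, all with a q-value under 0.05 and at least a 2-fold difference. Of these, 808 were higher and 366 lower in DSS+DCA. The limma fit, over the 14611 genes past the filter, instead called more genes lower (0.431%) than higher (0.13%). Cdx1 had a q-value of 0.0175 there but a fold of 0.566, and no call. For the other 7 factors the authors' q-value ran from 0.125 (Hnf4a) to 0.864 (Cdx2).

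Gata6 (chromosome 18, 11052064 to 11085635) measured 2.25, 2.63 and 2.52 FPKM in DSS+DCA, against 4.47, 4.57 and 3.67 FPKM in DSS, with no overlap. The means were 2.47 ± 0.196 FPKM in DSS+DCA and 4.24 ± 0.495 FPKM in DSS, or 1.72-fold lower, with a log2 change of -0.59 ± 0.16 (SE, limma adjusted p = 0.162). Among DSS+DCA libraries Gata6 was lowest in replicate 1, and so was Gata4, at a few fragments per library. Cdx1, Cdx2, Hnf4a, Hnf4g, Klf5, Elf3 and Isx were highest there.

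Elf3 (chromosome 1, 135253575 to 135258568) measured 324.8, 260.6 and 236.5 FPKM in DSS+DCA, against 469.3, 382.1 and 429.8 FPKM in DSS. All DSS+DCA libraries were below all DSS libraries, 1.56-fold by the means, with a log2 change of -0.65 ± 0.22 (SE, limma adjusted p = 0.222). Klf5 (chromosome 14, 99298691 to 99315036) measured 52.4, 39.7 and 46.5 FPKM in DSS+DCA, against 52.6, 53.8 and 53.5 FPKM in DSS. The groups did not overlap, but DSS+DCA replicate 1 lay next to the lowest DSS library, and the log2 change of -0.21 ± 0.18 (SE, limma adjusted p = 0.582) was near its error.

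Single libraries moved these results. Without DSS+DCA replicate 1, limma called Cdx1, Hnf4a, Gata4 and Elf3 lower, with adjusted p = 0.0192, 0.0243, 0.0355 and 0.0358, while 8.53% of all tested genes were called. With array weights, which give libraries far from their group mean less say, limma called Cdx1, Hnf4a, Gata4, Gata6 and Elf3 lower and Hnf4g higher, and also 42.6% of all tested genes. Such weights favour a library close to its group mean, as DSS replicate 4 was, so these calls depend on that library being independent. In the fit without weights, leaving out DSS replicate 4, none of the 9 passed (smallest limma adjusted p = 0.200, for Gata4), all signs were kept, and Gata4 had a log2 change of -1.12. Leaving out any 1 of the other 4 libraries, none passed in limma either.

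The share of 1 factor in a related pair is the same under any scaling of whole libraries. Cdx1 made up 45.7%, 49.4% and 50.6% of the summed FPKM of Cdx1 and Cdx2 in DSS+DCA, against 63.4%, 64.0% and 63.8% in DSS. The shares did not overlap, and differed by -15.2 percentage points between 48.5 ± 2.57% in DSS+DCA and 63.7 ± 0.342% in DSS (SD, n = 3 each, exact two-sided permutation p = 0.1). DSS+DCA replicate 1, where Cdx2 was high, had the lowest Cdx1 share.

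Hnf4g made up 1.38%, 1.16% and 1.38% of the summed FPKM of Hnf4a and Hnf4g in DSS+DCA, against 0.475%, 0.524% and 0.488% in DSS. The difference was 0.811 percentage points (exact two-sided permutation p = 0.1). Gata4 made up 2.13%, 3.92% and 3.71% of the summed FPKM of Gata4 and Gata6 in DSS+DCA, against 28.1%, 18.4% and 23.4% in DSS, a difference of -20.0 percentage points (exact two-sided permutation p = 0.1). No pair overlapped between groups. With 3 libraries against 3, 0.1 is the smallest p the exact test can give, so none of the 3 could pass 0.05, and adjusted over the 3 pairs each stays at 0.1. Without DSS replicate 4 the differences were -15.2, 0.807 and -19.9 percentage points for the Cdx1, Hnf4g and Gata4 shares (exact two-sided permutation p = 0.2 each).

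**Figure D2:**
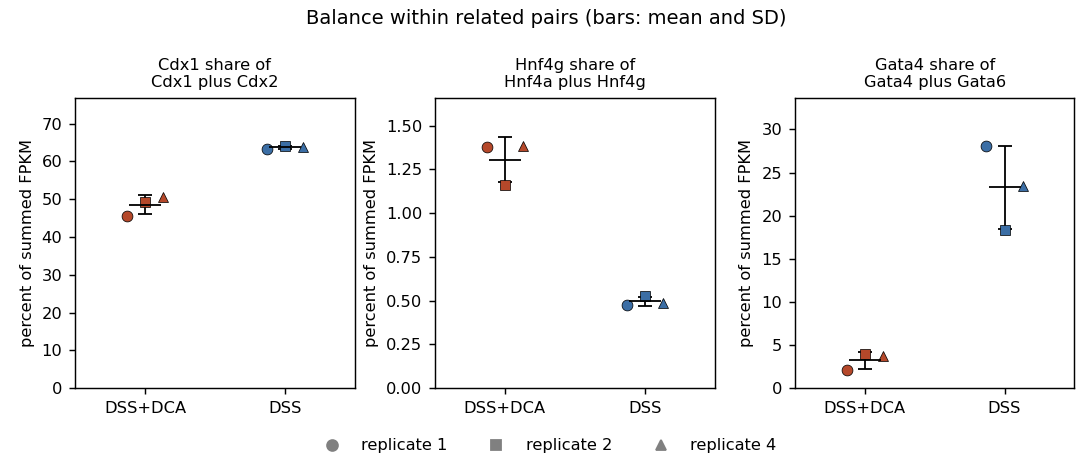
Share in percent (vertical axes, linear from 0) of Cdx1, Hnf4g and Gata4 in the summed FPKM of each pair, in DSS+DCA (left, red) and DSS (right, blue). Symbols are libraries and bars mean and SD; the Cdx1 share is 45.7% to 50.6% in DSS+DCA and 63.4% to 64.0% in DSS.

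General epithelial markers were themselves lower by value in DSS+DCA, 13 of 15 with a lower fitted value, 0 called and a median log2 change of -0.84. Their mean log2 level was 7.26, 6.51 and 6.63 in DSS+DCA replicates 1, 2 and 4, against 7.56, 7.39 and 7.53 in DSS replicates 1, 2 and 4. When every library was set to an equal mean of these markers, Cdx2, Hnf4g and Isx were called higher by limma. Cdx2 then had a log2 change of 0.75 ± 0.16 (SE, limma adjusted p = 0.0200), Isx of 0.76 ± 0.15 (SE, limma adjusted p = 0.0190) and Hnf4g of 1.04 ± 0.22 (SE, limma adjusted p = 0.0194). On this scale 38.5% of all tested genes were called (37.8% higher and 0.705% lower), so 3 of 9 is near the background. With DSS replicate 1, DSS replicate 4 or DSS+DCA replicate 4 left out, 0 factors were called on it, and calls over all genes were 0.123%, 0.356% and 1.09%. The log2 changes were then 0.69, 0.73 and 0.76 for Cdx2, 0.78, 0.70 and 0.71 for Isx, and 1.01, 1.03 and 0.98 for Hnf4g.

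On that scale Cdx1 (-0.15), Hnf4a (0.02), Elf3 (0.05) and Gata6 (0.10) lay within 1 SE of 0, each at a limma adjusted p between 0.474 and 0.916. For these factors no difference from the epithelial markers was detectable in these libraries. Klf5 had a log2 change of 0.49 (limma adjusted p = 0.0608) and Gata4 of -0.38 (limma adjusted p = 0.266). The scale adds the same log2 shift to every gene, which misplaces genes near or under 1 FPKM. With the FPKM rescaled before the logarithm, Gata4 was called lower (log2 change -0.84, limma adjusted p = 0.0403), Hnf4g higher (0.68, limma adjusted p = 0.0410), and Cdx2 and Isx were again higher (limma adjusted p = 0.0410 and 0.0403), where 9.35% of all tested genes were called (8.77% higher and 0.575% lower). This rescaling was chosen after the values were seen, and it was not repeated with single libraries left out.

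Equal epithelial markers moved the median log2 change of all genes by 0.70, to 0.60, and the rescaled FPKM moved it by 0.49, to 0.40. Equal markers move every gene alike, so changes relative to the median are necessarily the same with them as for the FPKM as deposited. These were 0.14 for Cdx2, 0.16 for Isx, 0.44 for Hnf4g and -0.12 for Klf5. Cdx1 had -0.75, Hnf4a -0.58, Elf3 -0.56, Gata6 -0.5 and Gata4 -0.98. With the rescaled FPKM they were 0.34 for Cdx2, 0.35 for Isx, 0.27 for Hnf4g and 0.07 for Klf5. Cdx1 then had -0.55, Hnf4a -0.39, Elf3 -0.36, Gata6 -0.45 and Gata4 -1.25.

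**Figure D3:**
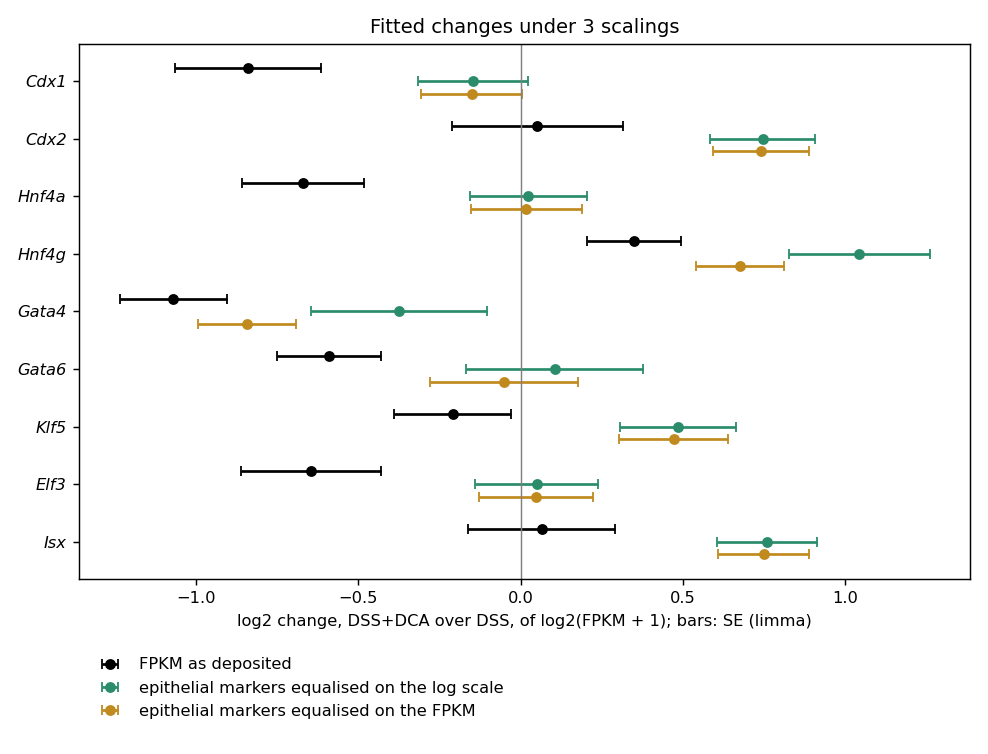
Fitted log2 change, DSS+DCA over DSS (horizontal axis, log2(FPKM + 1)), of each factor with its SE, for the FPKM as deposited (black), with epithelial markers equalised on the log scale (green) and on the FPKM (ochre). Cdx1, Hnf4a, Gata6 and Elf3 sit below 0 as deposited and near 0 against the epithelial markers, while Cdx2 and Isx sit near 0 as deposited and at 0.75 and 0.76 against the markers.

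The genes linked to these factors were read from lists chosen with earlier results of these data known. Of 12 tested genes linked to CDX factors in gut, 0 passed limma, 10 had a lower fitted value and the median was -0.81. Isx, itself a factor described here, is among the 12. Some genes, such as Cdh17, Car1 and Slc26a3, stand in more than 1 list, so the lists are not independent of each other. The mucin gene Muc2 had the smallest p, with 272.5 ± 46.4 FPKM in DSS+DCA and 564 ± 80.1 FPKM in DSS (SD, n = 3 each, limma adjusted p = 0.115). The butyrate transporter gene Slc5a8 averaged 8.64 ± 3.92 FPKM in DSS+DCA and 20.1 ± 1.42 FPKM in DSS (limma adjusted p = 0.129). The microvillus protein gene Vil1, in this list and the next, averaged 154.5 ± 21.7 FPKM in DSS+DCA and 269.2 ± 17.9 FPKM in DSS (limma adjusted p = 0.139).

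Of 20 tested brush border, junction and lipid oxidation genes linked to HNF4, 0 passed, 18 had a lower fitted value and the median was -0.48. Besides Vil1, the smallest p-values were those of Tm4sf20, a tetraspanin-like membrane protein gene, and the claudin gene Cldn7, a tight junction component. Tm4sf20 averaged 70.0 ± 19.3 FPKM in DSS+DCA and 135.9 ± 7.43 FPKM in DSS (limma adjusted p = 0.135). Cldn7 averaged 176.9 ± 65.9 FPKM in DSS+DCA and 359.4 ± 31.6 FPKM in DSS (limma adjusted p = 0.162). Both medians were less negative than, or close to, the -0.84 of general epithelial markers, and a difference from those markers was not tested.

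Small intestinal absorptive genes, many bound by GATA4 and HNF4 in the mouse jejunum, had 15 of 24 tested, with 13 lower fitted values and a median of -0.56. One fell, the intestinal alkaline phosphatase gene Alpi, to 16.0 ± 3.29 FPKM in DSS+DCA, against 42.2 ± 1.79 FPKM in DSS (SD, n = 3 each, limma adjusted p = 0.0486). Across all tested genes, 0.431% were called lower. Of the ISX-regulated genes, 3 of 7 were tested and 0 passed. Scarb1, which ISX represses, averaged 1.03 ± 0.322 FPKM in DSS+DCA and 1.31 ± 0.142 FPKM in DSS (limma adjusted p = 0.583), and Bco1, below the filter, averaged 0.294 ± 0.0904 FPKM in DSS+DCA and 0.356 ± 0.149 FPKM in DSS. The retinal reductase gene Dhrs3 averaged 10.7 ± 3.32 FPKM in DSS+DCA and 14.4 ± 0.511 FPKM in DSS (limma adjusted p = 0.403), and the retinol-binding protein gene Rbp2 12.8 ± 10.1 FPKM in DSS+DCA and 11.3 ± 2.19 FPKM in DSS (limma adjusted p = 0.954).

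Gastric genes, which mouse gut epithelium takes on when CDX2 is lost, were near 0. Of 15 listed, 8 were matched in the table, 0 passed the filter, and their sum was 0.372 to 1.37 FPKM in DSS+DCA and 0.691 to 1.78 FPKM in DSS. The highest single value was 1.25 FPKM, of Sox2 in DSS+DCA replicate 1. That library also had the highest sums of smooth muscle markers, 1530 FPKM, and of enteric neuron and glia markers, 73.0 FPKM. Which cells gave its Sox2 value was not tested.

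The colonic identity list had the lowest median of all lists. It too was chosen with earlier results of these data known. Its rank and its share of calls may partly reflect that choice and are description only. Of 13 tested genes 5 fell, Aqp4, Insl5, Hoxa13, Retnlb and Muc4, with 12 lower fitted values and a median of -1.50. Across all tested genes, 0.431% were called lower. The posterior homeobox gene Hoxa13 fell to 0.498 ± 0.494 FPKM in DSS+DCA, against 13.9 ± 4.71 FPKM in DSS (SD, n = 3 each, limma adjusted p = 0.0252). Muc4, a membrane mucin gene, had a log2 change of -1.49 ± 0.21 (SE, limma adjusted p = 0.0370). The colonic carbonic anhydrase gene Car1 averaged 4057 ± 1472 FPKM in DSS+DCA and 4405 ± 1902 FPKM in DSS (limma adjusted p = 0.934). With equal epithelial markers 7 of the 13 were called lower and 1 higher, beside 0.705% of all tested genes called lower and 37.8% higher. Without DSS replicate 4, without DSS replicate 1, or with no filter on low values, 0 of the listed genes were called. Limma then called 0, 0 and 2 of all genes, and the median of the list was -1.51, -1.45 and -1.49.

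Other epithelial and intestinal transcription factors had 0 of 23 tested past limma, 20 lower fitted values and a median of -0.32. The forkhead gene Foxa2 had the smallest p, with 2.37 ± 0.416 FPKM in DSS+DCA and 6.24 ± 1.36 FPKM in DSS (SD, n = 3 each, limma adjusted p = 0.0778). Creb3l3, a membrane-bound factor of lipid metabolism, averaged 1.146 ± 0.62 FPKM in DSS+DCA and 3.50 ± 1.33 FPKM in DSS (limma adjusted p = 0.167), and Ovol2, an epithelial zinc finger gene, 5.52 ± 1.77 FPKM in DSS+DCA and 9.92 ± 0.781 FPKM in DSS (limma adjusted p = 0.199).

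Paralogs of the 9 factors had 0 of 8 tested past limma, 6 lower fitted values and a median of -0.44. The ETS gene Ehf, closest in kind to Elf3, averaged 20.97 ± 4.50 FPKM in DSS+DCA and 38.0 ± 4.05 FPKM in DSS, with no overlap (SD, n = 3 each, limma adjusted p = 0.142). Spdef, the goblet cell ETS factor gene, averaged 6.92 ± 1.64 FPKM in DSS+DCA and 12.5 ± 2.36 FPKM in DSS (limma adjusted p = 0.179), and Klf6 40.6 ± 17.6 FPKM in DSS+DCA and 58.0 ± 3.09 FPKM in DSS (limma adjusted p = 0.368). Gata5, the third GATA factor of gut epithelium, was below the filter at 0.241 ± 0.113 FPKM in DSS+DCA and 0.416 ± 0.209 FPKM in DSS. Cdx4 measured 0.0302 FPKM in DSS+DCA replicate 2 and was listed at 0 in the other libraries.

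Among all tested genes, 60.5% had a lower fitted value with the FPKM as deposited. Equal epithelial markers add the same shift to the log2 change of every gene, and 8.14% of all tested genes then had a lower fitted value. On that scale the lower fitted values were 9 of 13 colonic identity genes (median -0.81), 7 of 12 CDX-linked genes (median -0.11), 7 of 15 absorptive genes, 7 of 20 HNF4-linked genes, 4 of 23 other transcription factors and 2 of 8 paralogs. Of the other cell markers, 1 rose, the fibroblast gene Dcn, with 4.50 ± 0.609 FPKM in DSS+DCA and 1.198 ± 0.410 FPKM in DSS (SD, n = 3 each, limma adjusted p = 0.0486). Across all tested genes, 0.13% were called higher. Most of its list went the other way, with 5 of the 7 tested fibroblast markers lower by fitted value and a median of -0.22. Neither Dcn nor Alpi was called without DSS replicate 1, 2 or 4 or DSS+DCA replicate 4, nor with a pseudocount of 0.1, no filter or equal sums outside the mitochondrial genome. Alpi was also not called with quantile normalization or with epithelial markers equalised on the FPKM. The part of the other cell types in the results was not tested.

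**Figure D4:**
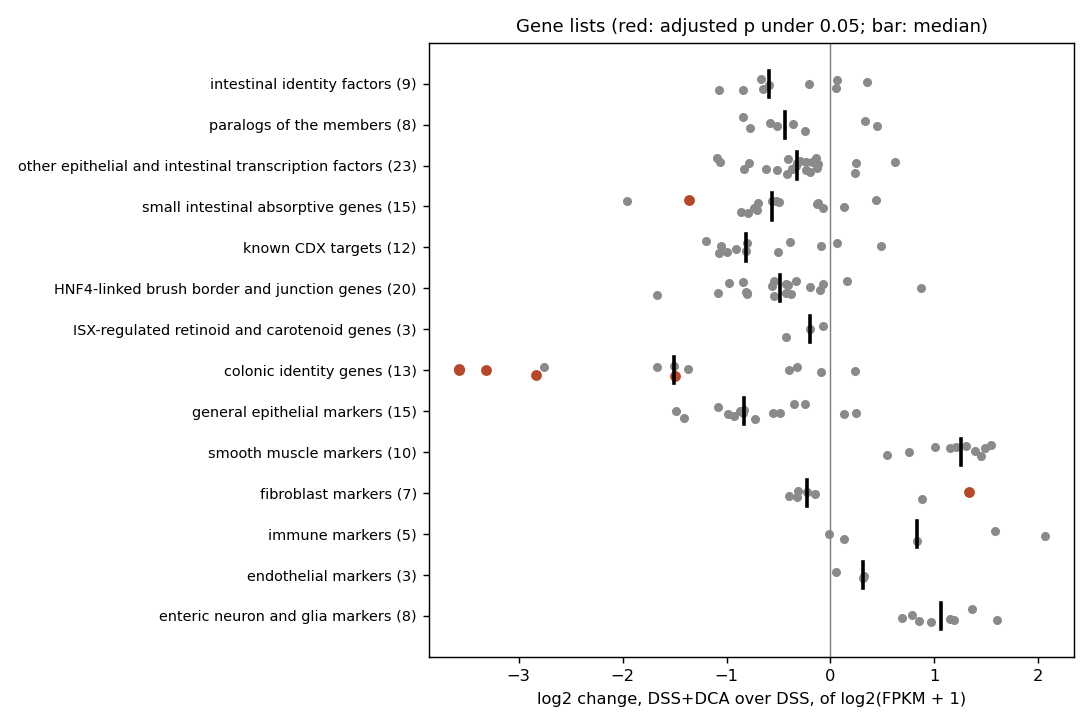
Fitted log2 change, DSS+DCA over DSS (horizontal axis, log2(FPKM + 1)), of each tested gene in the 14 lists with tested genes (number tested in brackets). The lists were chosen with earlier results of these data known. Each point is 1 gene, red where the adjusted p is under 0.05, and the bar is the median of the list; the 9 factors have a median of -0.59, general epithelial markers of -0.84 and colonic identity genes of -1.50.

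By likeness of profile, the root mean square distance between mean-centred log2(FPKM + 1) values over the 6 libraries, Elf3 and Hnf4a were the closest pair among the factors, at 0.0605 log2 units. Cdx2 and Isx came next at 0.107. Among 5469 other genes averaging 5 FPKM or more, those nearest to Cdx1 were Sec61g, Sdhb and Carhsp1 (0.0304 to 0.0559), and those nearest to Cdx2 were Rap2a, Atxn7l3b and Coasy (0.0291 to 0.0362). Nearest to Hnf4a were Sec11c, Pak4 and Fasn (0.0469 to 0.0623), and nearest to Elf3 were Cdcp1, Gmppb and Dok4 (0.0322 to 0.0555). Gata6 had Mon1a, Kdf1 and Tepsin (0.0426 to 0.0789), Klf5 had Napa, Lmbr1l and Vsig10 (0.0406 to 0.0438) and Isx had Phf2, Prpf6 and Gnl1 (0.0509 to 0.0563). Gata4 and Hnf4g, with means under 1 FPKM over the 6 libraries, were not matched. These distances describe 6 libraries only.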

How the data were processed

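Colonic RNA-seq of 6 libraries was read from 1 deposited table, which holds an FPKM for each gene in each library (per the file headers). It also holds the authors' fold (a ratio of DSS+DCA over DSS), its log2, and the authors' p-values and q-values, per the file headers. Tools named in the submitters' processing notes, with no roles, are StringTie 2.1.6, HISAT2 2.2.1, edgeR, DESeq2 and cutadapt 1.9. The authors' build and use of strand were not given in the sources used here. Per the labels' protocols, poly(A) RNA was purified and a dUTP step marked strand.

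Whole fragments were not recovered: 28.1% to 34.7% of low values lay within 0.05 of a whole number at the implied depth. So log2(FPKM + 1) was fitted with limma 3.58.1 in R 4.3.3 (trend, two-sided, no covariates) for the 14611 genes averaging 0.5 FPKM or more, with Benjamini-Hochberg adjustment over all of them. The fit was also run on simulated data with independent errors for each gene and library. Shifts shared across a library, or a DSS replicate 4 that is not independent, were not part of that simulation. Of the identifiers, 36870 were in GENCODE M21. Shares were compared by exact permutation in scipy 1.17.1, and figures were drawn with matplotlib 3.10.9.

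The factors and lists were chosen with earlier results of these data known. Named were all 9 factors, in each list up to 4 called genes or else up to 3 of smallest p, and the 3 nearest profiles of each factor averaging 1 FPKM or more. Gata5, Cdx4, Bco1, Sox2, Muc4 and Car1 were added after their values were seen. Some listed genes are not reported here by name.

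Other settings tried were the pseudocount (0.1), the filter (none, or an average of 2 FPKM), scaling (TMM-style, from trimmed means of M values, quantile, without mitochondrial genes, or by epithelial markers), array weights, a replicate block, an adjusted p under 0.1 and leaving out each library.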

Additional observations from a re-analysis of the deposited data

How the results depend on the processing

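Against 82 genes called, limma called 132 with TMM-style scaling, 2 with no filter, 230 at an adjusted p under 0.1, 5624 with equal epithelial markers, 1366 with these equalised on the FPKM (chosen after seeing the data), 6227 with array weights and 0 to 1246 leaving out each library (1246 without DSS+DCA replicate 1, and 0 without DSS replicate 1 or 4, where 1503 and 1412 genes had an unadjusted p under 0.05). Of the 9 factors, 0 were called as deposited, 1 at an adjusted p under 0.1 (Gata4), 3 with equal epithelial markers, 4 with these on the FPKM, 6 with array weights and 0 to 4 leaving out each library. Their median of -0.59 was -0.48 with TMM-style scaling, -0.11 with quantile normalization, -0.45 with array weights, -0.64 to -0.54 leaving out each library, and turned to 0.10 with equal epithelial markers and 0.047 with these on the FPKM. Signs turned with equal epithelial markers for Hnf4a (0.024, and 0.018 on the FPKM), Elf3 (0.049 and 0.047), Klf5 (0.49 and 0.47) and Gata6 (0.10, but -0.05 on the FPKM), with quantile normalization for Klf5 (0.23) and with array weights for Cdx2 (-0.12). Leaving out each library gave -0.21 to 0.22 for Cdx2 and -0.13 to 0.22 for Isx. Over epithelial markers, leaving out each library called 0 to 4 factors, 0 without DSS+DCA replicate 4, DSS replicate 1 or DSS replicate 4. The Cdx1 share differed by -16.2 to -13.8, the Hnf4g share by 0.773 to 0.884 and the Gata4 share by -22.5 to -17.6 percentage points. The causes were not tested.

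Pairing by replicate number was looked for in the deviations of libraries from their group means. Those of same-numbered libraries correlated at -0.14, -0.17 and 0.02 across genes, and 0 of 6 libraries correlated best with their own number. Deviations within a group sum to 0, which ties these correlations to each other, so the check cannot exclude pairing. With a replicate block limma called 1 gene and 0 factors, 0 of the 13 colonic identity genes, and neither Alpi nor Dcn (adjusted p = 0.224 for both). Low depth limits Gata4 most, at a few fragments per DSS+DCA library.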
